A study of Mus musculus with 6 samples.

Results

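The genes encoding the SIN3 histone deacetylase complex were examined in mouse embryonic stem cells (mESCs) that overexpressed RBBP4 or RBBP7, histone-binding proteins that the complex itself contains. The members were Sin3a, Sin3b, Sap18, Sap30, Sap130, Suds3, Ing1, Ing2, Brms1 and Arid4b, 10 of the 55401 genes listed for each library. They were chosen as subunits of the complex, without Hdac1, Hdac2, Rbbp4 and Rbbp7, which other complexes share, and were found by symbol and Ensembl gene identifier. The rule uses function and no expression value, but the list was drawn up with earlier results of these data known.

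Bulk poly(A) RNA-seq was available for 6 libraries of 46C cells, an mESC line, in 3 groups of 2. By the labels the controls stably expressed the biotin tag alone, Rbbp4 OE cells carried biotin-tagged Rbbp4 and Rbbp7 OE cells carried biotin-tagged Rbbp7, none with further treatment. By the study's methods all 3 groups first received a BirA-V5 biotin ligase by lentivirus under blasticidin, then the pSin-FLAG-Avitag vector, empty or with the cDNA, under puromycin, and all grew in serum with LIF, Chir99021 and PD0325901. The groups are therefore selected populations with random integrations, each made by 1 infection scheme, and no source used here says that the libraries of a group came from separate cultures, so p-values measure only the spread between these libraries. Expression was deposited as TPM, a share of all transcripts scaled for transcript length to a fixed total, and sequencing depth is unknown.

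SIN3A and SIN3B are large scaffold proteins that have no known DNA-binding activity of their own. They hold together the deacetylases HDAC1 and HDAC2, the histone-binding proteins RBBP4 and RBBP7, a set of associated polypeptides and several proteins that read histone marks. Transcription factors such as the MXD family and REST bring the complex to promoters, where removal of acetyl groups from histones is mostly linked to lower transcription. In the early mouse embryo and in mESCs, Sin3a is required for survival and proliferation.

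The 10 members were measured in every library, and at all of them the TPM stayed above 4. Arid4b was the lowest, between 4.15 and 6.35 TPM over the 6 libraries, and Ing2 followed at 14.02 to 19.83 TPM. Above both, Sap130, Sin3a, Brms1, Ing1 and Suds3 formed a middle group in which each gene's range overlapped that of the next lower one, spanning 39.8 to 71.4 TPM. Sap30, Sin3b and Sap18 stood highest, and their ranges also overlapped, from 102 to 174 TPM. Gaps without overlap separated Arid4b from Ing2, Ing2 from Sap130 and Suds3 from Sap30. Together the 10 members summed to 637 and 670 TPM in the controls, 723 and 691 in Rbbp4 OE cells and 650 and 674 in Rbbp7 OE cells. The higher sum in Rbbp4 OE leans on Sap18, a gene whose own value is uncertain. Sap18 was at 174.33 and 141.97 TPM there, against 114.47 and 120.08 TPM in the controls. The sum therefore does not show a rise of the whole set. In Rbbp4 OE 5 members lay above both controls, 3 lay below and 2 overlapped them. Of the members, 4 lie on chromosome 8, namely Sin3b, Sap30, Ing1 and Ing2.

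**Figure D1:**
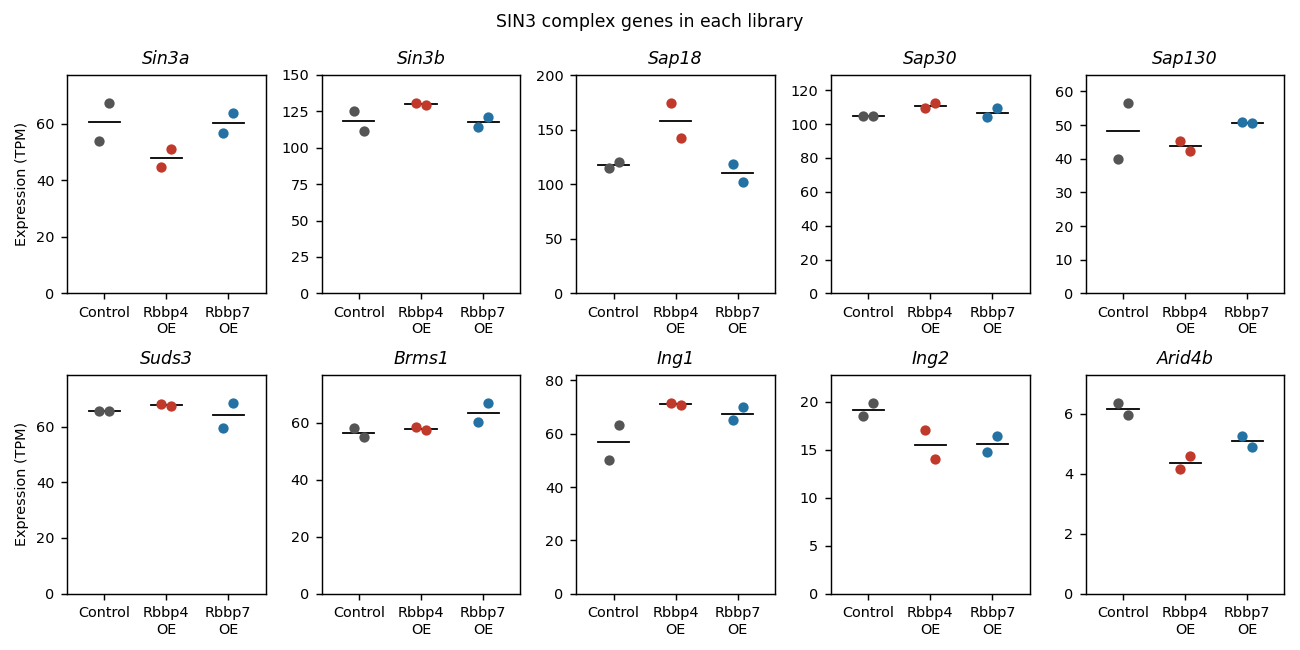
Expression in TPM (vertical axes, each from 0) of the 10 SIN3 complex genes in control, Rbbp4 OE and Rbbp7 OE cells, with 1 point per library and a line at the mean of 2. Sap18 lies higher and Sin3a and Arid4b lie lower in both Rbbp4 OE libraries than in both controls, while Sap30 and Suds3 vary little.

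None of the 10 members passed an adjusted p of 0.05 in any of the 3 comparisons (limma on log2(TPM + 1), Benjamini-Hochberg over 14156 genes). At that threshold 11.4% of all tested genes passed between Rbbp4 OE and control, 0.487% between Rbbp7 OE and control and 0.304% between Rbbp4 OE and Rbbp7 OE. An adjusted p under 0.01 with a fold over 2, the thresholds of the study, was met by 0.516%, 0.0353% and 0.0494% of all genes and by 0 members. At an unadjusted p under 0.05 there were 4 members in Rbbp4 OE against control (Sin3a, Sap18, Ing1 and Arid4b; 29.6% of all genes), 0 in Rbbp7 OE against control (15.4%) and 2 between both overexpression lines (Sin3a and Sap18; 19% of all genes). The genes passing in Rbbp4 OE against control numbered 466 higher and 1143 lower, a split that became 716 and 712 when the libraries were rescaled by median of ratios, 115 and 36 without Rbbp4 OE replicate 1, and 35 and 12 without Rbbp4 OE replicate 2.

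The libraries themselves were compared next. In Rbbp4 OE, both libraries lay above both controls for 5 members (Sin3b, Sap18, Sap30, Suds3 and Ing1) and below them for 3 (Sin3a, Ing2 and Arid4b). Such separation was found above the controls in 20.8% and below them in 37.1% of all genes, so 8 separated members of 10 stood against a background of 57.9%. In Rbbp7 OE, Ing1 and Brms1 lay above and Ing2 and Arid4b below, against a background of 21.2% above, 23.4% below and 44.5% in all. Between Rbbp4 OE and Rbbp7 OE, 3 members lay above and 4 below, where 16.1% of all genes lay above, 38.6% below and 54.7% in all. The median log2 fold change of the members was 0.040 in Rbbp4 OE, where that of all genes was -0.077 (members 0.15 and all genes 0.011 under median-of-ratios scaling, and -0.022 and -0.065 after the GC content and length correction), and in Rbbp7 OE it was -0.0044, where that of all genes was -0.0037.

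The 95% confidence intervals set limits on the changes that these libraries allow. Over the 10 members they reached from -0.75 to 0.71 on the log2 scale in Rbbp4 OE against control, from -0.58 to 0.54 in Rbbp7 OE against control and from -0.64 to 0.80 between the lines. All of these bounds lie inside a 2-fold change of TPM + 1 in either direction. Missing the threshold does not show that a member did not change.

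**Figure D2:**
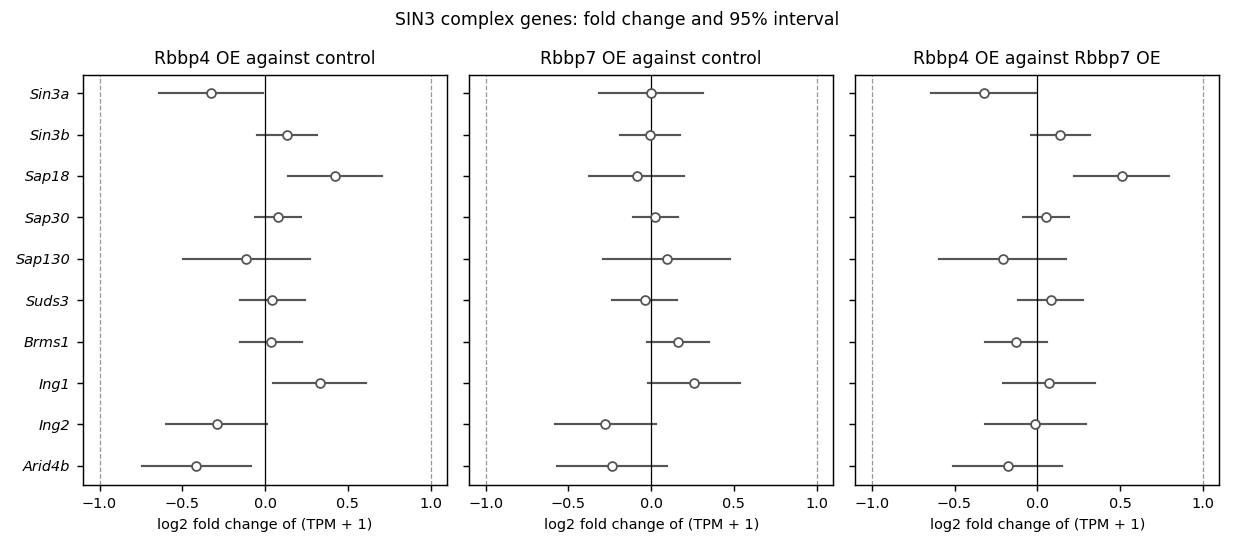
Log2 fold change of TPM + 1 (horizontal axis) for each SIN3 complex gene in the 3 comparisons, with 95% confidence intervals from limma; dashed lines mark a 2-fold change and open circles an adjusted p of 0.05 or more. All circles are open, all intervals stay between the dashed lines, and the interval of Sap18 lies farthest above 0 in Rbbp4 OE.

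The scaffolds were Sin3a (ENSMUSG00000042557.14, GRCm38 chr9:57072040-57128366) and Sin3b (ENSMUSG00000031622.16, chr8:72723285-72758201), protein-coding genes whose products bind the same deacetylase core. Sin3a was at 53.99 and 67.24 TPM in the controls, 44.77 and 51.02 in Rbbp4 OE cells and 56.71 and 63.73 in Rbbp7 OE cells. Both Rbbp4 OE libraries lay below all 4 others, while those of Rbbp7 OE fell between the controls. The Rbbp4 OE contrast gave Sin3a a log2 fold change of -0.33 (SE 0.129, interval -0.64 to -0.014, limma adjusted p = 0.155), and the Rbbp7 OE contrast -0.0033 (interval -0.32 to 0.31, limma adjusted p = 1.00). In Rbbp4 OE the Sin3a value was -0.17 without control replicate 2 and also after the GC content and length correction, and -0.48 without control replicate 1. Sin3b was at 125.46 and 111.47 TPM in the controls, 130.56 and 129.09 in Rbbp4 OE cells and 114.38 and 121.32 in Rbbp7 OE cells. Here the Rbbp4 OE libraries were the highest, by a small margin over the higher control (log2 fold change 0.13, SE 0.0739, limma adjusted p = 0.290).

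The summed level of Sin3a and Sin3b varied little. It was 179 TPM in both controls, 175 and 180 in Rbbp4 OE cells and 171 and 185 in Rbbp7 OE cells. Within this sum the share of the scaffolds differed, with 2.32 and 1.66 times as much Sin3b as Sin3a in the controls, 2.92 and 2.53 in Rbbp4 OE cells and 2.02 and 1.90 in Rbbp7 OE cells. The controls themselves differed by more on this ratio (SD 0.471) than the libraries of either other group. RBBP4 and RBBP7 are partners of these scaffolds, and the summed TPM of Rbbp4 and Rbbp7 was 2.14 and 2.15 times that of Sin3a and Sin3b in the controls, 2.72 and 2.71 in Rbbp4 OE cells and 5.08 and 4.81 in Rbbp7 OE cells. The TPM of Rbbp4 and Rbbp7 may hold reads of the tagged cDNA and of the native gene, which cannot be told apart here.

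Among the associated polypeptides, Sap18 (ENSMUSG00000021963.17, chr14:57798180-57806638) had the widest difference. The protein SAP18 was named for its association with SIN3 and also takes part in an RNA-binding complex at exon junctions. Its gene was at 114.47 and 120.08 TPM in the controls, 174.33 and 141.97 in Rbbp4 OE cells and 118.77 and 102.25 in Rbbp7 OE cells. Both Rbbp4 OE libraries were above all others, and they also differed from each other by 0.294 on the log2 scale, the largest gap of any member within that group. The log2 fold change was 0.42 in Rbbp4 OE against control (SE 0.117, interval 0.14 to 0.71, limma adjusted p = 0.0708) and 0.51 in Rbbp4 OE against Rbbp7 OE (SE 0.117, interval 0.22 to 0.80, limma adjusted p = 0.127). In Rbbp7 OE against control it was -0.089 (interval -0.37 to 0.20, limma adjusted p = 0.781). Under 4 of 17 alternatives the Rbbp4 OE difference passed 0.05, with the lowest limma adjusted p, 0.0270, after a correction for GC content and length. Without Rbbp4 OE replicate 1 it was 0.27 (limma adjusted p = 0.271).

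A value for Sap18 alone is uncertain, because its coding part is identical to that of a copy. Sap18b (ENSMUSG00000061104.5, chr8:95825346-95826134) is a gene of 1 exon whose transcript of 789 bases matches the 4-exon Sap18 without a mismatch over 780 bases, including all 519 coding bases with the stop codon.

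Sap18b was listed higher than Sap18 in every library, at 270.27 and 258.99 TPM in the controls, 294.33 and 302.07 in Rbbp4 OE cells and 299.75 and 303.40 in Rbbp7 OE cells. Since reads from the shared bases fit both genes equally, the division between both genes was an estimate of the authors' program. The sum of both was examined after seeing the data. As TPM divides by transcript length, and the longest Sap18 transcript has 5125 bases, the sum can still depend on that division. It was 384.74 and 379.07 TPM in the controls, 468.66 and 444.04 in Rbbp4 OE cells and 418.52 and 405.65 in Rbbp7 OE cells, with no overlap between the groups. The log2 fold change of the sum was 0.26 in Rbbp4 OE against control (SE 0.0475, interval 0.14 to 0.37, limma adjusted p = 0.0273), 0.11 in Rbbp7 OE against control (interval -0.0063 to 0.22, limma adjusted p = 0.347) and 0.15 between the lines (interval 0.031 to 0.26, limma adjusted p = 0.195). The first of these passed in 10 of 18 fits, the reported one included, and was lost on leaving out any single library of the 6, with limma adjusted p-values from 0.0510 (without control replicate 1) to 0.148 (without Rbbp4 OE replicate 1) and fold changes of 0.22 to 0.29.

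**Figure D3:**
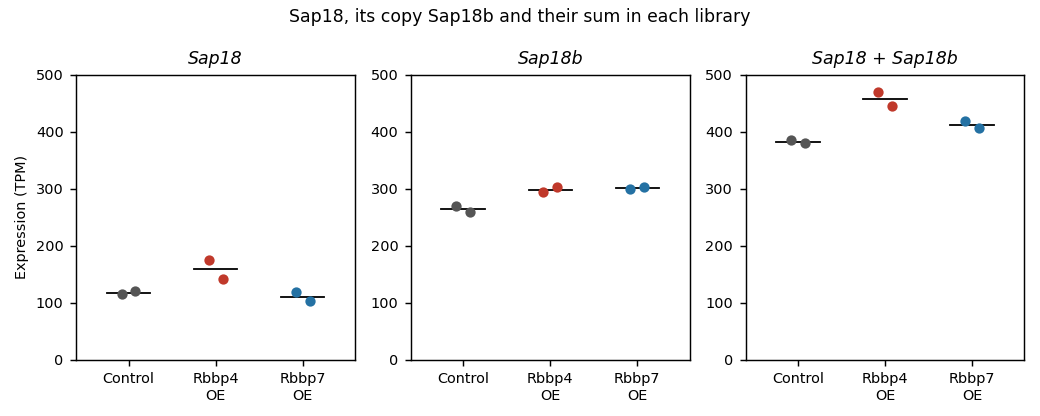
Expression in TPM (vertical axis from 0, shared by the panels) of Sap18, its copy Sap18b and their sum, with 1 point per library and a line at the mean of 2. The sum lies at 444 and 469 TPM in Rbbp4 OE, above 406 to 419 TPM in Rbbp7 OE and 379 to 385 TPM in control.

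The other associated polypeptides differed less. Sap30, whose product bridges SIN3 to the deacetylase, was at 104.79 and 104.76 TPM in the controls, 109.29 and 112.36 in Rbbp4 OE cells and 104.02 and 109.41 in Rbbp7 OE cells. Suds3, a subunit needed for the deacetylase activity of the complex, was at 65.60 and 65.55 TPM in the controls, 68.03 and 67.19 in Rbbp4 OE cells and 59.61 and 68.30 in Rbbp7 OE cells. Both genes lay slightly above the controls in Rbbp4 OE, with log2 fold changes of 0.080 for Sap30 (limma adjusted p = 0.396) and 0.043 for Suds3 (limma adjusted p = 0.762), and overlapped them in Rbbp7 OE. Brms1, named as a breast cancer metastasis suppressor, was at 58.01 and 55.03 TPM in the controls, 58.46 and 57.44 in Rbbp4 OE cells and 60.17 and 66.83 in Rbbp7 OE cells, the last pair above all others (log2 fold change 0.16, interval -0.023 to 0.35, limma adjusted p = 0.380). A separately annotated gene, AC124502.3, with a transcript identical to that of Brms1 over 1383 bases, was listed at no more than 0.65 TPM. Its position relative to Brms1 was not examined. Sap130, a subunit encoded on chromosome 18, was at 39.79 and 56.52 TPM in the controls, 45.21 and 42.35 in Rbbp4 OE cells and 50.95 and 50.48 in Rbbp7 OE cells. Its controls, which differed by 0.496 on the log2 scale, the widest gap of any member, enclosed all 4 other libraries.

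Of the members that read chromatin, ING1 and ING2 bind methylated lysine 4 of histone H3 through a PHD finger and are close homologs. Ing1 (ENSMUSG00000045969.8, chr8:11555571-11563251) was at 50.22 and 63.24 TPM in the controls, 71.38 and 70.71 in Rbbp4 OE cells and 65.12 and 70.03 in Rbbp7 OE cells. Ing2 (ENSMUSG00000063049.4, chr8:47667178-47675556) was at 18.49 and 19.83 TPM in the controls, 17.03 and 14.02 in Rbbp4 OE cells and 14.79 and 16.47 in Rbbp7 OE cells. In both overexpression lines Ing1 lay above and Ing2 below both controls, which the lines share. The log2 fold changes of Ing1 were 0.33 in Rbbp4 OE (SE 0.114, limma adjusted p = 0.118) and 0.26 in Rbbp7 OE (SE 0.114, limma adjusted p = 0.357), and those of Ing2 were -0.29 (SE 0.125, limma adjusted p = 0.185) and -0.28 (SE 0.125, limma adjusted p = 0.362). The Ing1 values rest on the controls: without control replicate 1 they were 0.17 in Rbbp4 OE and 0.093 in Rbbp7 OE, and without control replicate 2 they were 0.49 and 0.42. Leaving out Rbbp4 OE replicate 2 moved Ing2 to -0.16 in that line. Ing1 in Rbbp4 OE passed 0.05 under median-of-ratios scaling, with a limma adjusted p of 0.0435. Between the lines the intervals of the difference were -0.21 to 0.35 for Ing1 and -0.32 to 0.29 for Ing2.

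Arid4b (ENSMUSG00000039219.18, chr13:14063232-14199603) encodes a subunit with an AT-rich interaction domain, a chromodomain and a Tudor domain. It was at 6.35 and 5.97 TPM in the controls, 4.15 and 4.59 in Rbbp4 OE cells and 5.26 and 4.90 in Rbbp7 OE cells, with the groups separated from each other. The log2 fold change was -0.42 in Rbbp4 OE (SE 0.135, interval -0.75 to -0.086, limma adjusted p = 0.100) and -0.24 in Rbbp7 OE (SE 0.135, interval -0.57 to 0.094, limma adjusted p = 0.470). In Rbbp4 OE the value was -0.49 with a pseudocount of 0.1, -0.25 with a pseudocount of 5, and -0.22 (limma adjusted p = 0.382) after the GC content and length correction. Its difference between the lines, -0.18 (interval -0.51 to 0.15), had a limma adjusted p of 0.502.

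The start sites of the members were examined for features that expression had not used. RefSeq promoter windows on GRCm38.p6, from 250 bases before to 50 after each start, were found for 8 of the 10 members, with 13 windows in all, 5 of which belong to Ing1 and partly overlap. Sap130 and Brms1 had no entry. The windows held 14 to 37 CpG dinucleotides, with a median of 26, where the median of all 32851 windows was 7. That full set was not limited to genes expressed in these cells, so it is not matched to the members. A GC box, written GGGCGG on either strand (CCGCCC on the other), stood in 11 of the 13 windows (84.6%) and in 35.7% of all windows, or by gene in 6 of 8 members and 10324 of 27025 genes, and the E-box CACGTG, which reads the same on both strands, stood in 0 of the 13 and in 7.15% of all. The 2 windows without a GC box were those of Arid4b and Sap18, and both are printed in full with each CpG in capitals (plus strand). A match or its absence describes these letters only.
Arid4b, chr13:14063534-14063833: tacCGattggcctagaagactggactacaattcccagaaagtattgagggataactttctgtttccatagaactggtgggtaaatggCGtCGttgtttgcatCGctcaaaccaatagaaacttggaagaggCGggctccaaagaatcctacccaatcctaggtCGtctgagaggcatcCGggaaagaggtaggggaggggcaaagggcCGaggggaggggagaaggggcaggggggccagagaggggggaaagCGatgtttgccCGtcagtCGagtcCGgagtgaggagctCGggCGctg
Sap18, chr14:57797939-57798238: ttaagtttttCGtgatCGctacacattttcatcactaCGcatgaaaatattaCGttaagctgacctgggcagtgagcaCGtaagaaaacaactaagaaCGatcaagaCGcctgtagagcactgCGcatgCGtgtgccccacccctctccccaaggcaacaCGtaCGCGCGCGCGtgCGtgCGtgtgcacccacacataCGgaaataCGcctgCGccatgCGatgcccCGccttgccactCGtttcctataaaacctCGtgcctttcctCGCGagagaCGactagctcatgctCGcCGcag

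The 2 windows look unlike each other. That of Arid4b holds 14 CpG, the low end of the members' range, and that of Sap18 holds 29, of which 5 follow each other in an alternating run of C and G.

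The remaining genes linked to SIN3 were then set beside the members, 24 in all: 4 of the shared core, 10 further subunits and 10 DNA-binding factors linked to recruitment of the complex. In Rbbp4 OE against control 2 of the 24 passed an adjusted p of 0.05 as higher (Rbbp4 and Sap30l), 3 as lower (Hdac1, Morf4l1 and Kdm5a) and 19 did not pass, against backgrounds of 3.29% higher and 8.07% lower. In Rbbp7 OE, of the 24, only Rbbp7 itself passed, as higher (background 0.198% higher and 0.29% lower), and between the lines only Rbbp4 as higher and Rbbp7 as lower (0.177% and 0.127%). The design sets these calls of the overexpressed genes Rbbp4 and Rbbp7. Without them, Sap30l was the only listed gene that passed as higher, and none passed in the last 2 comparisons. Of the 10 DNA-binding factors, which include the MXD proteins, MAX, MNT and REST, 0 passed in any comparison by limma. In the 3 comparisons 1, 0 and 1 of them had an unadjusted p under 0.05, against 29.6%, 15.4% and 19% of all genes. The median log2 fold change in Rbbp4 OE was -0.21 for the 10 further subunits and 0.018 for the DNA-binding factors. That of all genes was -0.077.

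The shared core gave the check of the groups, through Rbbp4 and Rbbp7, whose differences the design sets. Rbbp4 was at 146.02 and 147.00 TPM in the controls, 269.97 and 271.20 in Rbbp4 OE cells and 143.92 and 142.66 in Rbbp7 OE cells, and Rbbp7 had 238.55 and 237.14 TPM, 207.58 and 217.48 TPM, and 724.74 and 748.06 TPM. Each was higher in its own line than in all other libraries. Hdac1, a catalytic subunit, fell from 190.34 and 198.90 TPM in control to 152.26 and 152.46 TPM in Rbbp4 OE, with 180.87 and 179.37 TPM in Rbbp7 OE. The Rbbp4 OE contrast of Hdac1 came to -0.35 on the log2 scale (SE 0.0499, limma adjusted p = 0.0153), while that of Hdac2 was 0.048 (interval -0.11 to 0.21, limma adjusted p = 0.673). Hdac1 lies 180.7 kb from Rbbp4 on chromosome 4, and whether this position bears on its level was not tested. Its single-exon copy Gm10093 matches it at 99.4% identity and was listed at 27.53 to 31.27 TPM.

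Among the further subunits, Sap30l encodes a homolog of SAP30 that can stand in the same position of the complex. It was at 29.62 and 30.26 TPM in the controls, 48.84 and 50.54 in Rbbp4 OE cells and 32.18 and 33.99 in Rbbp7 OE cells. The Rbbp4 OE libraries lay well above all others, by 0.71 over the controls on the log2 scale (SE 0.0734, limma adjusted p = 0.00797), and the difference between the lines was 0.57 (SE 0.0734, limma adjusted p = 0.0645). After the GC content and length correction the difference of Sap30l from the controls was 0.50 (limma adjusted p = 0.0434). Morf4l1, whose chromodomain protein MRG15 binds methylated lysine 36 of histone H3, was at 462.65 and 461.02 TPM in the controls, 387.10 and 377.98 in Rbbp4 OE cells and 414.41 and 419.08 in Rbbp7 OE cells (log2 fold change in Rbbp4 OE -0.27, SE 0.0409, limma adjusted p = 0.0170). It was lower in both lines by library, but its Rbbp4 OE value shrank to -0.10 (limma adjusted p = 0.248) after correction for GC content and length and to -0.16 (limma adjusted p = 0.124) under median-of-ratios scaling. Kdm5a, a demethylase of lysine 4 of histone H3, was at 15.93 and 23.35 TPM in the controls, 9.42 and 8.83 in Rbbp4 OE cells and 13.41 and 14.93 in Rbbp7 OE cells (0.498 times the control level in Rbbp4 OE by the fit, log2 SE 0.183, interval -1.45 to -0.56, limma adjusted p = 0.0258).

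These calls rest on few libraries. Without Rbbp4 OE replicate 1 the limma adjusted p of Sap30l was 0.0731, and without Rbbp4 OE replicate 2 it was 0.113. Hdac1, Morf4l1 and Kdm5a missed 0.05 when any 1 library other than control replicate 1 was left out, with limma adjusted p-values up to 0.127, 0.140 and 0.187. With all libraries of the compared groups but a 2-group fit they were 0.0576, 0.0648 and 0.0850, and Kdm5a was at 0.0732 with no filter on low values. The log2 fold changes of these 4 genes kept their sign in all 18 fits. Rbbp4 in Rbbp4 OE against Rbbp7 OE had a limma adjusted p of 0.0536 without Rbbp7 OE replicate 1.

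**Figure D4:**
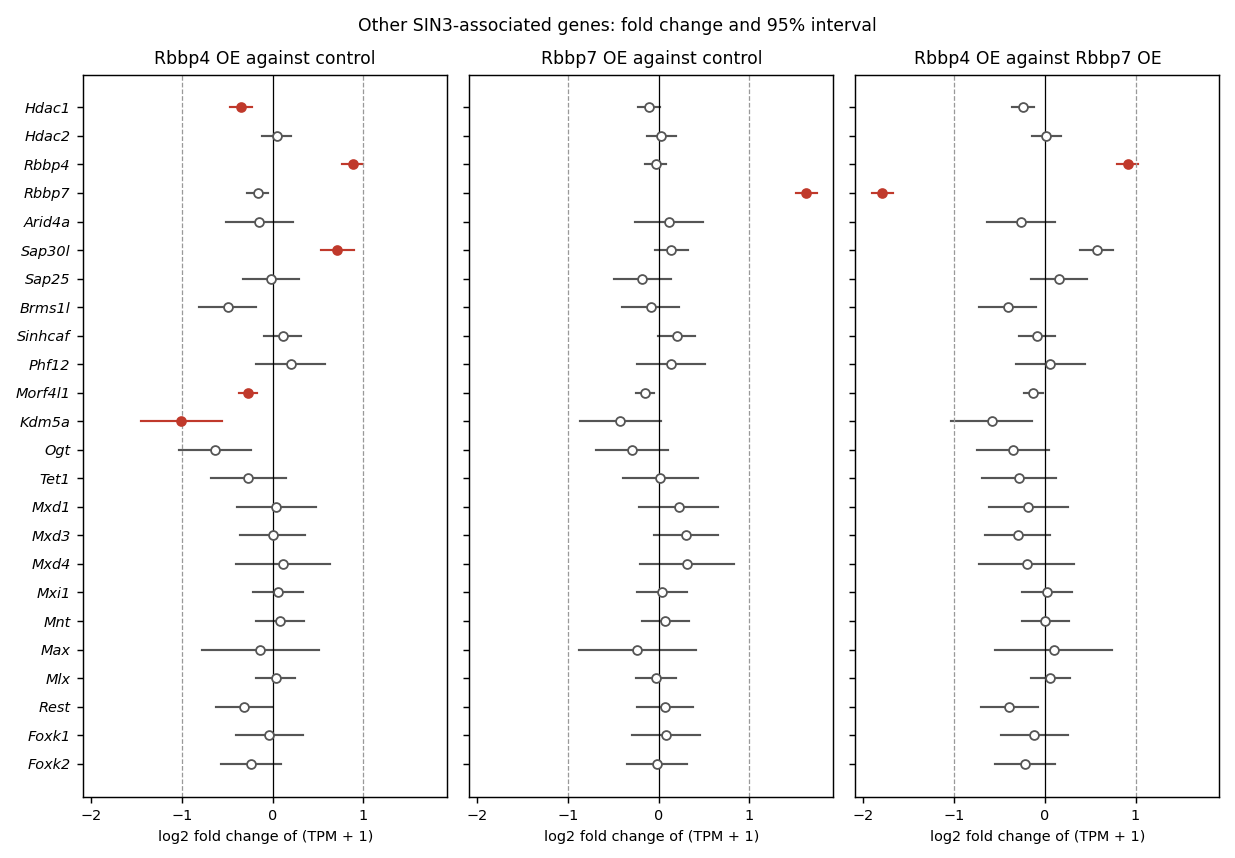
Log2 fold change of TPM + 1 (horizontal axis) with 95% confidence intervals from limma for 24 further SIN3-associated genes in the 3 comparisons. The order is shared core, further subunits and DNA-binding factors. Filled red circles mark an adjusted p under 0.05 and dashed lines a 2-fold change. In Rbbp4 OE 5 circles are filled, in Rbbp7 OE the single filled circle is Rbbp7.

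Several of these genes form pairs of close relatives, and their ratios within a library are unchanged when the library is multiplied by 1 factor. The ratios can still depend on GC content and length, with a GC content of 66.3% in Sap30l and 53.1% in Sap30. The ratios were chosen after seeing the data, and with 2 libraries against 2 an exact permutation test cannot go below p = 0.333, so they are given without a test. Sap30l stood at 0.283 and 0.289 of Sap30 in the controls, 0.447 and 0.450 in Rbbp4 OE cells and 0.309 and 0.311 in Rbbp7 OE cells, the tightest of the 7 ratios within each group. The ratio of Hdac1 to Hdac2 was 1.60 and 1.51 in the controls, 1.17 and 1.19 in Rbbp4 OE cells and 1.43 and 1.40 in Rbbp7 OE cells. For Ing1 over Ing2 it was 2.72 and 3.19 in the controls, 4.19 and 5.04 in Rbbp4 OE cells and 4.40 and 4.25 in Rbbp7 OE cells, with both lines above the controls and overlapping each other. Brms1l, a relative of Brms1, stood at 0.206 and 0.237 of Brms1 in the controls, 0.135 and 0.162 in Rbbp4 OE cells and 0.205 and 0.166 in Rbbp7 OE cells. The ratio of Arid4b to its relative Arid4a overlapped between control and Rbbp4 OE, at 1.25 and 0.979 against 0.773 and 1.01, and in Rbbp7 OE, at 0.887 and 0.783, it lay below both controls.

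**Figure D5:**
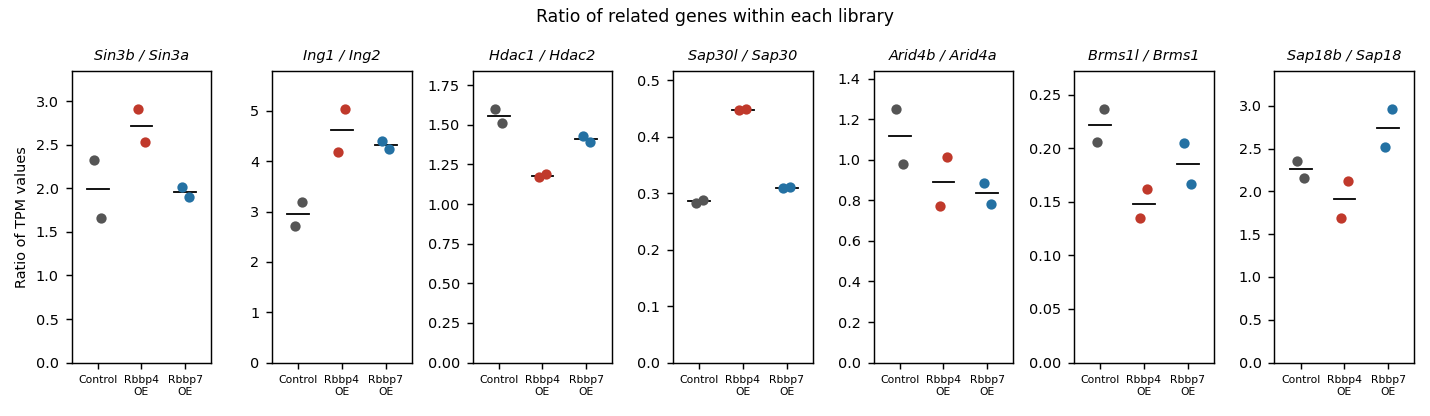
Ratio of the TPM values of related genes within each library (vertical axes, each from 0), with 1 point per library and a line at the mean of 2. The ratio of Sap30l to Sap30 is near 0.45 in both Rbbp4 OE libraries and between 0.28 and 0.32 in the other 4, while the ratio of Ing1 to Ing2 is above 4 in both overexpression lines.

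The cells were checked against a list of mESC markers. All 8 mESC markers, among them Pou5f1, Nanog and Sox2, were at 1 TPM or more in every library. Their summed level, carried mostly by Dppa5a and Pou5f1, was 7879 to 8107 TPM in control, 8508 to 8799 TPM in Rbbp4 OE and 8511 to 8743 TPM in Rbbp7 OE. Of these 8, Nanog, Klf4, Esrrb and Tdgf1 lay below both controls in both Rbbp4 OE libraries, with Nanog at 434 and 420 against 484 and 521 TPM. Pou5f1 and Dppa5a lay above both controls there, with Pou5f1 at 1816 and 1781 against 1577 and 1455 TPM. Sox2 and Zfp42 overlapped the controls. Of all tested genes, 37.1% lay below and 20.8% above the controls in Rbbp4 OE. Markers of other cells summed to far less, with the 4 fibroblast markers at 4.48 to 5.59, 9.09 to 11.3 and 8.75 to 15.5 TPM in the 3 groups, the 3 mesoderm markers at 6.82 to 8.67, 10.3 to 11.2 and 14.3 to 15.4 TPM, and the 4 trophoblast markers at 16.1 to 16.4, 16.7 to 24.2 and 23.4 to 26.0 TPM. Thy1 led the fibroblast sum, at 4.13 and 5.02 TPM in the controls and 7.01 to 10.8 in the 4 other libraries. Col3a1 added 6.39 TPM to the sum of Rbbp7 OE replicate 1, against 0.06 TPM for replicate 2. Eomes carried the mesoderm sum, at 5.32 and 6.01 TPM in the controls and 7.59 to 11.2 elsewhere. The study also stained EOMES in its trophoblast assay. Krt8 carried the trophoblast sum, at 10.8 and 11.1 TPM in the controls and 13.8 to 22.3 in the 4 other libraries. Cdx2 was lower in those 4, at 2.93 to 3.70 against 5.49 and 4.88 TPM. A sum resting mostly on 1 gene does not identify a cell type. The 4 primitive endoderm markers stayed at or under 2.27 TPM and the 3 neural markers at or under 1.67 TPM, with Neurog2 listed at 0 throughout. In bulk samples fewer cells of a type and less RNA per cell cannot be told apart, and the part of these markers in the members' differences was not tested.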

How the data were processed

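The authors trimmed reads with Trim_galore, aligned them to mm10 with STAR and estimated expression with RSEM, with GENCODE annotation, and deposited 1 table of TPM values per library. TPM fixes each library's total, so depth and counting error are unknown. Groups came from the labels. Symbols and positions came from GENCODE M21 on GRCm38, an earlier release than the study's, which matched 55141 of 55401 genes and all 10 members by identifier. Log2(TPM + 1) of the 14156 genes with a mean of at least 0.5 TPM was fitted in 1 limma-trend model of 3 groups (limma 3.58.1, R 4.3.3; 3 residual and 3.103 prior degrees of freedom), two-sided, with Benjamini-Hochberg adjustment over all genes. The study used a count model, which TPM does not allow. Fold changes on this scale understate low genes.

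The members and lists, and the tests, were chosen with earlier results of these data known. All members, the shared core and listed genes at an adjusted p under 0.05 were named, with 3 genes most correlated with each scaffold. Copies were sought with blastn 2.17.0 at 95% identity over 80% of the shorter transcript. The script was tested on simulated data. Alternatives were pseudocounts of 0.1 and 5, no filter or a mean of 5 TPM, median-of-ratios and quantile scaling, a robust trend, fits of the compared groups alone, the replicate number as a block, protein-coding genes only, a spline correction for GC content and length, and leaving out each library. The paralog ratios and the Sap18 and Sap18b sum were added after seeing the data.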

Additional observations from a re-analysis of the deposited data

Results flagged for a closer look

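The overexpressed genes differed between the lines, as the design sets: in Rbbp4 OE against Rbbp7 OE the limma adjusted p was 0.00192 for Rbbp4 and 8.31e-05 for Rbbp7. The ratio of Sap18b to Sap18 lay on opposite sides of the controls in the 2 lines, with a mean of 2.26 in control, 1.91 in Rbbp4 OE and 2.75 in Rbbp7 OE (n = 2 libraries each). For Rbbp4 OE the ratio was 1.69 with replicate 1 but 2.13 with replicate 2, just under the lower control at 2.16. The other control stood at 2.36, so the Rbbp4 OE side rests mostly on replicate 1. Both Rbbp7 OE libraries, at 2.52 and 2.97, were above both controls. The difference in this ratio was not tested, and the ratio rests on how reads shared by both genes were divided.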

How the results depend on the processing

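The 10 members were refitted under 17 alternatives. The number passing in Rbbp4 OE against control was 0 under 13 of them, 1 (Sap18) with a mean of at least 5 TPM, protein-coding genes only or the GC content and length correction, and 2 (Sap18 and Ing1) under median-of-ratios scaling; in the other comparisons it was 0 in all. Sap18 with Sap18b summed, added after seeing the data, passed in Rbbp4 OE at 0.26, and in Rbbp7 OE it was positive, at 0.11, where Sap18 alone was at -0.089.

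Signs turned for members near 0, none of them past the threshold. The GC content and length correction gave -0.0058 for Sap30 and -0.12 for Brms1 in Rbbp4 OE, 0.035 for Sin3a and -0.0030 for Sap30 in Rbbp7 OE, and -0.0027 for Sap30 and 0.011 for Ing2 between the lines. Median-of-ratios scaling gave 0.0052 for Sin3a and 0.0029 for Sin3b in Rbbp7 OE and 0.080 for Ing2 between the lines, and quantile normalization 0.0084, 0.0063 and 0.10. With 1 library left out, the values in Rbbp4 OE ran from -0.36 to 0.13 for Sap130 and from -0.0015 to 0.073 for Brms1. In Rbbp7 OE they ran from -0.16 to 0.15 for Sin3a, -0.090 to 0.079 for Sin3b, -0.20 to 0.019 for Sap18, -0.010 to 0.062 for Sap30, -0.15 to 0.34 for Sap130 and -0.14 to 0.058 for Suds3, and between the lines from -0.014 to 0.18 for Suds3 and -0.15 to 0.12 for Ing2.

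Counts over all genes moved more. In Rbbp4 OE against control 1609 passed, 709 with no filter, 158 in a 2-group fit and 47 to 1574 with 1 library left out, and 73 met the study's thresholds, 31 at pseudocount 5, 4 without a filter, 1 in a 2-group fit and 0 to 40 with 1 library left out. In Rbbp7 OE 69 passed, 9 with no filter, 137 with a mean of at least 5 TPM, 36 under median-of-ratios scaling, 1 in a 2-group fit and 2 to 53 with 1 library left out, and 5 met the study's thresholds, 2 with no filter, 8 with a mean of at least 5 TPM, 0 in a 2-group fit and 0 with any library left out. Between the lines 43 passed, 28 with no filter, 8 in a 2-group fit and 8 to 98 with 1 library left out, and 7 met the study's thresholds, 4 with no filter, 1 with protein-coding genes only and 0 to 42 with 1 library left out. Between the lines 25 of the 43 were higher, against 21 higher and 8 lower under median-of-ratios scaling, 92 and 6 without Rbbp4 OE replicate 1, and 10 and 48 without Rbbp7 OE replicate 2. The cause of these shifts was not tested.

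Replicate numbers did not pair the samples (correlations of same-numbered deviations -0.026, 0.034 and -0.031). With the replicate number as a block, 900, 9 and 9 genes passed and 4 met the study's thresholds in Rbbp4 OE, while 0 members passed in all 3 comparisons. The median log2 fold change of all genes in Rbbp4 OE was -0.077, 0.011 under median-of-ratios scaling and -0.12 without control replicate 1. Depth is unknown, and 2 libraries a group limit the precision.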

Other observations

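The genes whose log2(TPM + 1) followed each scaffold most closely over the 6 libraries are given as a description, among 9035 genes with a mean of at least 5 TPM. For Sin3a they were Trmt10c (Pearson r 0.991), a subunit of mitochondrial ribonuclease P, the kinase gene Akt2 (0.991) and Mief1 (0.990), and 108 genes had an r above 0.95. For Sin3b they were Clpp (0.996), a mitochondrial protease, Gm6394 (0.995) and Elob (0.993), and 29 genes had an r above 0.95. The points share 3 groups and the same libraries. Clpp was at 251.18 and 218.35 TPM in the controls, 264.74 and 259.30 in Rbbp4 OE cells and 226.75 and 238.67 in Rbbp7 OE cells, and like Sin3b it was higher in control replicate 1 than in control replicate 2. Akt2 was at 69.62 and 81.17 TPM in the controls, 63.55 and 69.47 in Rbbp4 OE cells and 74.29 and 78.79 in Rbbp7 OE cells, and like Sin3a it was lower in control replicate 1.

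The libraries of a group differed by a median absolute log2 value over all genes of 0.178 in control, 0.121 in Rbbp4 OE and 0.123 in Rbbp7 OE, and over the 10 members of 0.0863, 0.0659 and 0.125. Across 14142 genes, which are not independent replicates, the difference between the controls had a correlation of 0.179 with log2 transcript length, where those of the other groups were -0.0639 and 0.0246.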
